A study of Mus musculus with 6 samples.

Results

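The genes described here are 9 of the 54525 genes listed in the deposited counts, chosen by their symbols. They are the 3 muscle RING-finger genes *Trim63*, *Trim55* and *Trim54* (MuRF1, MuRF2 and MuRF3), the F-box genes *Fbxo32* (atrogin-1) and *Fbxo30* (MUSA1), the SOCS-box gene *Asb2*, and the Kelch genes *Klhl31*, *Klhl40* and *Klhl41*. They were measured by RNA-seq in 3 samples of myoblasts (day 0, D0) and 3 of myotubes (D5, day 5 of differentiation) of C2C12, an established cell line from mouse muscle. When serum is lowered, these cells leave the cell cycle and fuse into myotubes with many nuclei. All 6 samples were wild type (WT) and untreated per the labels, which give no difference between the groups other than the day, and both groups rest on 1 cell line. By the paper's methods, myoblasts grew with fetal bovine serum and were differentiated in medium with less serum, from horse. The medium thus differed along with the day. The sample labels give the cell type as myoblasts for both days, and the day stands in the sample titles.

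A ubiquitin ligase (E3) brings a substrate to an E2 enzyme, which attaches ubiquitin, and chains of ubiquitin send the protein to the proteasome. MuRF proteins bind the E2 through their own RING finger and sit on the sarcomere and on microtubules. F-box, SOCS-box and Kelch proteins instead hold the substrate for a cullin scaffold: Cul1 with Skp1 for F-box proteins, Cul5 with elongins B and C for SOCS-box proteins, and Cul3 for BTB-Kelch proteins. *Trim63* and *Fbxo32* are best known as genes that rise in wasting muscle, and *Klhl40* and *Klhl41* as genes mutated in nemaline myopathy, where their proteins are needed to keep thin-filament proteins stable.

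Of the 9 genes, 6 were higher in myotubes, 2 were lower and 1 (*Fbxo30*) did not pass the test. *Trim63*, *Trim54*, *Klhl40* and *Klhl41* rose from low or moderate levels by 331-fold, 73.9-fold, 41.2-fold and 25.9-fold. *Trim55* and *Klhl31* were already well expressed in myoblasts and rose by 2.29-fold and 1.92-fold. *Asb2* fell to 57.9% of its myoblast level and *Fbxo32* to 88.9%. D5 and D0 were compared with edgeR's quasi-likelihood test on the 16290 genes that passed its filter on low counts, among them all 9 described here, with Benjamini-Hochberg adjustment over these genes. With TMM scaling 82.9% of the genes tested were called in either direction, 42.2% as higher and 40.8% as lower, so a call by itself does not set these genes apart. Scaled to the ERCC spike-ins instead, synthetic RNAs added to a sample, 1813 of the 16290 genes were called higher and 3747 lower, and of the 9 genes 4 were called higher and 1 lower. The median log2 fold change was 1.20 over the 9 genes and 0.0022 over all genes tested, of which the middle 50% lay between -0.63 and 0.71. In the 6 genes that rose every D5 library lay above every D0 library, as it did in 42.2% of all genes tested, and in the 2 that fell every D5 library lay below, as in 41.1%.

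The libraries held 36555048 to 40895840 counts on genes at D0 and 25449759 to 25811300 at D5. Levels are given as CPM, counts per 1000000 counts after scaling with TMM factors, which compares libraries for 1 gene. They are also given as TPM, which divides by exonic length and compares genes. TPM takes no TMM factors, so sums and ratios of TPM between days are not on the scale of the CPM values. The myoblast markers *Pax7* and *Myf5* and the marker of cycling cells *Mki67* were lower at D5. The myotube markers *Myog*, *Mymk*, *Myh3*, *Acta1* and *Ckm* were higher, and the log2 fold changes ran from -5.11 (*Mki67*) to 11.44 (*Myh3*). Of 12 markers of immune, endothelial, fat, glial and epithelial cells, only *Cd68* passed the filter, at -0.50 on the log2 scale (edgeR's test, adjusted p = 3.0e-03). *Adgre1* was at 0 in every library, and the summed level of the 12 markers was 3.38 to 3.55 CPM at D0 and 2.49 to 2.91 CPM at D5. In these bulk samples fewer cells of a type and less RNA per cell cannot be told apart. The labels do not say that the samples of a day came from separate passages, so p-values measure the spread between these samples, which may be technical. With 3 libraries per group, the smallest two-sided p of an exact permutation test is 0.1, so tests of single genes come from the model across all genes.

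**Figure D1:**
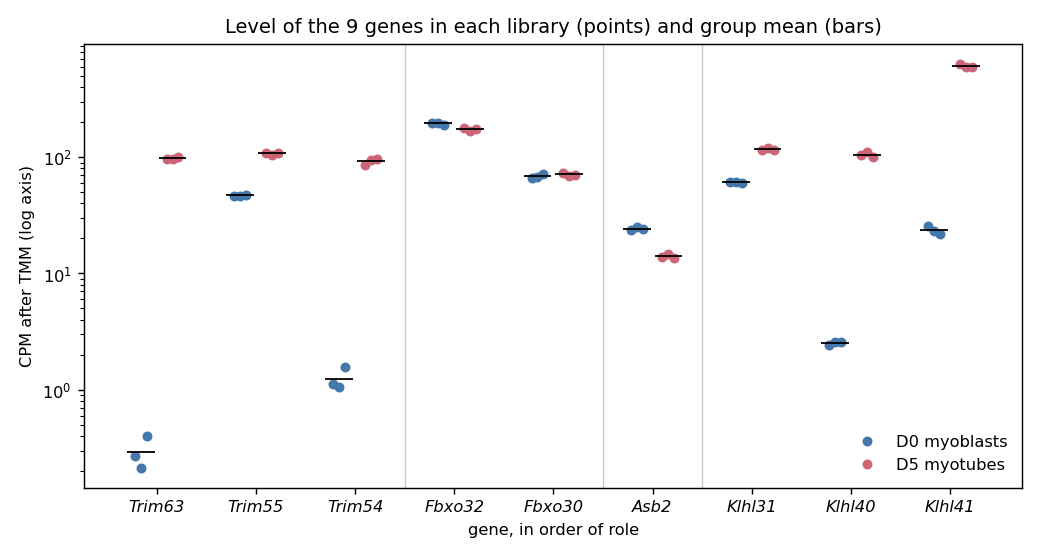
Level of the 9 genes in each library, in CPM after TMM scaling on a log axis, with D0 myoblasts in blue, D5 myotubes in red and bars at the group means of 3 libraries. *Trim63*, *Trim54*, *Klhl40* and *Klhl41* start far below their D5 level, while the D0 and D5 points of *Fbxo30* overlap.

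The MuRF genes are close relatives, so the stretch that codes for the RING finger is shown first, from the first to the last zinc-binding residue, with the 8 zinc-binding codons in capitals. Each sequence was joined from 2 exons of GRCm38. The stretch of *Trim63* is at chr4:134315290-134315382 and chr4:134316387-134316461, that of *Trim55* at chr3:19644684-19644776 and chr3:19645274-19645348, and that of *Trim54* at chr5:31116985-31117077 and chr5:31131042-31131116, all on the plus strand.
Trim63: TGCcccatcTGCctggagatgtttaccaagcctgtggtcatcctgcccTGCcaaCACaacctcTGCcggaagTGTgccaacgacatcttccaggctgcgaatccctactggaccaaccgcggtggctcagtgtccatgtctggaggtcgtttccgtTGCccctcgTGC
Trim55: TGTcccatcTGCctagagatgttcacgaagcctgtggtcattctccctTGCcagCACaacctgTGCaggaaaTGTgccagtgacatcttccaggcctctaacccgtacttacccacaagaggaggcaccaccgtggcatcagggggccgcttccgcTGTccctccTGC
Trim54: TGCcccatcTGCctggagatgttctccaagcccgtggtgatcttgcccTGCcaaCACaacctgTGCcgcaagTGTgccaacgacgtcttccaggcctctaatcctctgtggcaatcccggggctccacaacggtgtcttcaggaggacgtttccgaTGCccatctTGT
Over these 168 bases *Trim63* and *Trim54* had 129 bases in common (76.8%), *Trim63* and *Trim55* 124 (73.8%), and *Trim55* and *Trim54* 123 (73.2%). All 3 genes had the same base at 108 positions, and the longest identical run of any pair was 23 bases. In their whole transcripts no stretch of 50 bases was common to any pair of the 9 genes, so reads of that length or more can tell them apart.

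*Trim63* (ENSMUSG00000028834.13, chr4:134315120-134329629, plus strand) encodes MuRF1, which is known to ubiquitinate myosin heavy chains and other thick-filament proteins. It was barely detected in myoblasts, at 10, 9 and 16 counts in D0 replicates 1, 2 and 3, against 2435, 2397 and 2486 counts in the D5 replicates. These counts correspond to 0.267, 0.214 and 0.397 CPM at D0 and to 96.9, 97.3 and 99.9 CPM at D5. The groups lay far apart, and the spread was widest at D0, where the coefficient of variation reached 32.2%. The log2 fold change was 8.37 ± 0.089 (n = 3 libraries per group, adjusted p = 4.5e-35 in edgeR's test), rank 153 by size of rise among the 16290 genes tested. The ± of log2 fold changes is a standard error derived from the test statistic. For large changes from few counts it is too small: DESeq2 gave 8.40 with a standard error of 0.25 for *Trim63*.

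*Trim54* (ENSMUSG00000062077.14, chr5:31116712-31137630, plus strand) encodes MuRF3, a microtubule-binding member of the family. Its level was 1.12, 1.05 and 1.56 CPM in the D0 replicates and 84.9, 94.4 and 97.4 CPM in the D5 replicates, again without overlap. The log2 fold change was 6.21 ± 0.084 (adjusted p = 1.7e-32 in edgeR's test), and DESeq2 gave 6.22 with a standard error of 0.13. The exons of *Trim54* overlap those of the antisense gene *Gm15469* over 26.6% of their length, and that gene held 0 counts in every D0 library and at most 5 at D5.

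*Trim55* (ENSMUSG00000060913.6, chr3:19644474-19692421, plus strand) encodes MuRF2, which associates with titin and microtubules while myofibrils form. It was well expressed before differentiation, at 46.8, 46.6 and 47.7 CPM in the D0 replicates, and reached 109, 105 and 109 CPM at D5. The groups did not overlap, and the log2 fold change was 1.20 ± 0.037 (adjusted p = 6.0e-23 in edgeR's test). Scaled to the ERCC spike-ins it was 0.62 and the call was lost (adjusted p = 0.365 in edgeR's test), and relative to the spike-ins D5 replicate 3 lay at 0.826 times the D0 mean.

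The makeup of the MuRF transcripts therefore differed between the days. Per length, the summed level of the 3 genes was 64.5 ± 2.34 TPM (SD, n = 3) in myoblasts and 432 ± 10.5 TPM in myotubes, a ratio of 6.69 without TMM factors. *Trim55* made up 94.8% ± 1.08 of that sum at D0 and 29.1% ± 1.30 at D5. *Trim54* went from 4.63% ± 0.923 to 46.1% ± 1.81, and *Trim63* from 0.550% ± 0.163 to 24.8% ± 0.517. For each gene the shares in the D0 and D5 libraries were far apart. With the longest transcript as the length, *Trim63* took 33.0% and *Trim55* 26.3% at D5, so the order of these genes at D5 depends on the length used, whereas *Trim54* was first with either.

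**Figure D2:**
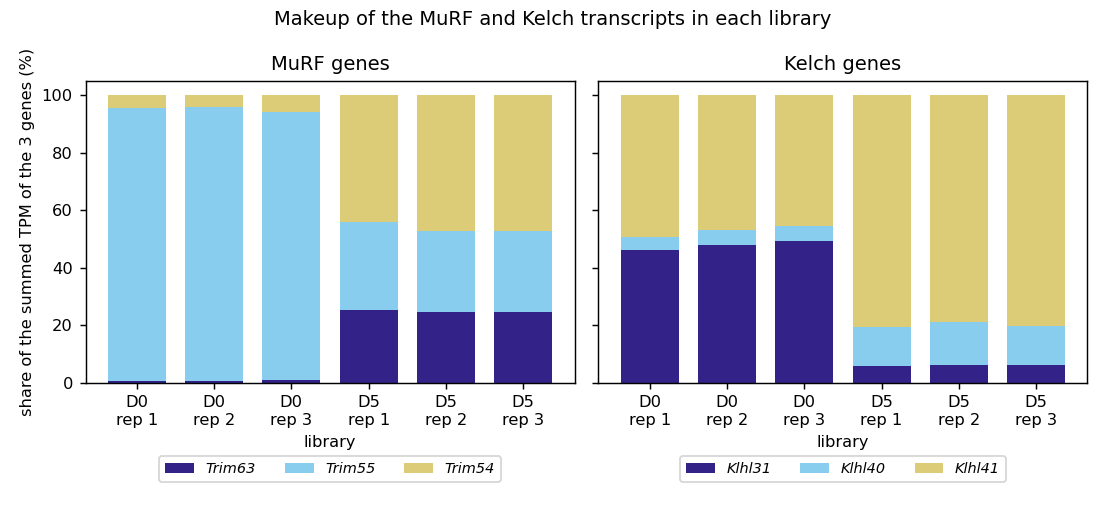
Share of each gene in the summed TPM of the 3 MuRF genes (left) and of the 3 Kelch genes (right), in percent, for each of the 6 libraries. *Trim55* fills over 90% of every D0 bar on the left and about 30% of the D5 bars, and *Klhl41* grows to about 80% of the D5 bars on the right.

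The F-box genes moved little. *Fbxo32* (ENSMUSG00000022358.7, chr15:58175879-58214932, minus strand) encodes atrogin-1, whose known substrates include MyoD and the translation factor eIF3f. It had the highest level per length of the 9 genes in myoblasts, 96.6 ± 1.40 TPM, and was measured at 199, 197 and 189 CPM in the D0 replicates and 177, 166 and 176 CPM in the D5 replicates. The D5 libraries lay below the D0 libraries without overlap, by a small margin, and the log2 fold change was -0.17 ± 0.034 (adjusted p = 4.6e-05 in edgeR's test). With ERCC spike-in scaling the estimate was lower, -0.75, but its standard error was 0.52 and the call was lost.

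*Fbxo30* (ENSMUSG00000047648.13, chr10:11281330-11298052, plus strand) encodes MUSA1, an F-box protein known from denervated muscle. Its level was 66.4, 67.8 and 72.0 CPM at D0 and 73.7, 69.0 and 70.9 CPM at D5, and the groups overlapped. Its log2 fold change, 0.050 ± 0.040, did not pass edgeR's test (adjusted p = 0.246), and its sign changed with the scaling: it was -0.034 with total counts and -0.53 with ERCC spike-in scaling. Together *Fbxo32* and *Fbxo30* gave 142 ± 1.91 TPM at D0 and 120 ± 6.07 TPM at D5, without TMM factors. The direction for *Fbxo30* differed between the units, with means of 45.7 and 42.5 TPM but 68.7 and 71.2 CPM at D0 and D5.

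*Asb2* (ENSMUSG00000021200.14, chr12:103321142-103356001, minus strand) encodes the SOCS-box protein that targets filamins for degradation during muscle differentiation. It was measured at 23.7, 25.3 and 23.9 CPM in the D0 replicates and 13.9, 14.8 and 13.5 CPM in the D5 replicates, without overlap. The log2 fold change was -0.79 ± 0.059 (adjusted p = 2.8e-13 in edgeR's test). *Asb2* has alternative start sites, and counts per gene do not tell its isoforms apart.

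The Kelch genes all rose with TMM scaling, although the call of *Klhl31* was lost with ERCC spike-in scaling. *Klhl41* (ENSMUSG00000075307.3, chr2:69670120-69684230, plus strand) is known for binding nebulin and the nebulin-related protein NRAP. It was the most abundant of the 9 genes in myotubes, with 631, 598 and 595 CPM at D5 against 25.5, 23.3 and 21.8 CPM at D0. The groups did not overlap, and the log2 fold change was 4.69 ± 0.045 (adjusted p = 3.8e-36 in edgeR's test).

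*Klhl40* (ENSMUSG00000074001.3, chr9:121777607-121783818, plus strand) encodes a protein that stabilises nebulin and leiomodin 3. Its level went from 2.43, 2.59 and 2.58 CPM at D0 to 104, 111 and 99.8 CPM at D5, without overlap, and the log2 fold change was 5.37 ± 0.064 (adjusted p = 7.0e-34 in edgeR's test). Its exons overlap the antisense gene *Gm47108* over 21.6% of their length, where at most 7 counts were assigned to that gene in any library. Of its 50-base stretches, 20% were also found in *Gm47108*, and 18.4% of those of *Trim54* in *Gm15469*. These are the same antisense overlaps, and no other gene held these stretches. Of the stretches of *Klhl41*, 4.68% were found in transcripts of 381 other genes. Reads from any of these stretches may be split.

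*Klhl31* (ENSMUSG00000044938.8, chr9:77636500-77660127, plus strand) encodes a Cul3 adaptor for filamin C. It was measured at 61.3, 61.1 and 60.6 CPM in the D0 replicates, the tightest of all groups with a coefficient of variation of 0.611%, and at 116, 120 and 116 CPM at D5. The groups did not overlap, and the log2 fold change was 0.94 ± 0.036 (adjusted p = 7.5e-21 in edgeR's test).

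Summed per length, the Kelch genes went from 68.1 ± 1.56 TPM to 932 ± 41.5 TPM, a ratio of 13.7 without TMM factors. In myoblasts *Klhl31* and *Klhl41* held near-equal shares of 47.7% ± 1.55 and 47.1% ± 1.91, and *Klhl40* held 5.15% ± 0.366. In myotubes *Klhl41* held 80.0% ± 0.912, *Klhl40* 13.9% ± 0.742 and *Klhl31* 6.02% ± 0.220. The share of *Klhl31* was thus lower in every D5 library, while its own level rose with TMM scaling, a rise not called with ERCC spike-in scaling.

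The order of the 9 genes per length was different on the 2 days. In myoblasts it ran from *Fbxo32* at 96.6 TPM through *Trim55* (61.1), *Fbxo30* (45.7), *Klhl31* (32.5), *Klhl41* (32.1), *Asb2* (23.7), *Klhl40* (3.51) and *Trim54* (3.00) to *Trim63* (0.357). Of these neighbours, *Klhl31* and *Klhl41*, and *Klhl40* and *Trim54*, overlapped between libraries, and all other neighbours were apart. In myotubes it ran from *Klhl41* at 746 TPM through *Trim54* (199), *Klhl40* (130), *Trim55* (126), *Trim63* (107), *Fbxo32* (77.0), *Klhl31* (56.0) and *Fbxo30* (42.5) to *Asb2* (12.3), with overlap only between *Klhl40* and *Trim55*. With the longest transcript as the length, *Trim63* came before *Klhl40* and *Trim55* at D5, at 129 TPM.

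The direction and size of the small changes depend on how libraries are scaled, since TMM sets the typical gene to no change. The ERCC spike-ins took 0.726% to 0.859% of all counts at D0 and 1.20%, 0.720% and 2.09% in D5 replicates 1, 2 and 3. Scaled to them, the median of all genes was -0.58 on the log2 scale. The calls of *Trim55* (log2 fold change 0.62 ± 0.52, adjusted p = 0.365), *Klhl31* (0.39 ± 0.52, adjusted p = 0.584) and *Fbxo32* (-0.75 ± 0.52, adjusted p = 0.261) were lost under this scaling in edgeR's test. With TMM their values were 1.20 ± 0.037, 0.94 ± 0.036 and -0.17 ± 0.034. Under spike-in scaling the errors were thus wider for all 3, the estimates of *Trim55* and *Klhl31* were smaller, and that of *Fbxo32* was lower. The lost calls do not show an absence of change, and the part of error and estimate in them was not tested. Relative to the median of all genes under this scaling, *Trim55* stood at 1.20, *Klhl31* at 0.96 and *Fbxo32* at -0.17, close to the TMM values. Scaling shifts all genes by about the same amount, so this closeness follows from the calculation and is no further evidence of a change. The spike-in share differed among the D5 libraries themselves: relative to the spike-ins, *Klhl31* ranged from 0.680 times its D0 mean in D5 replicate 3 to 2.06 times in D5 replicate 2. The part of the spike-in amount in these values was not tested.

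**Figure D3:**
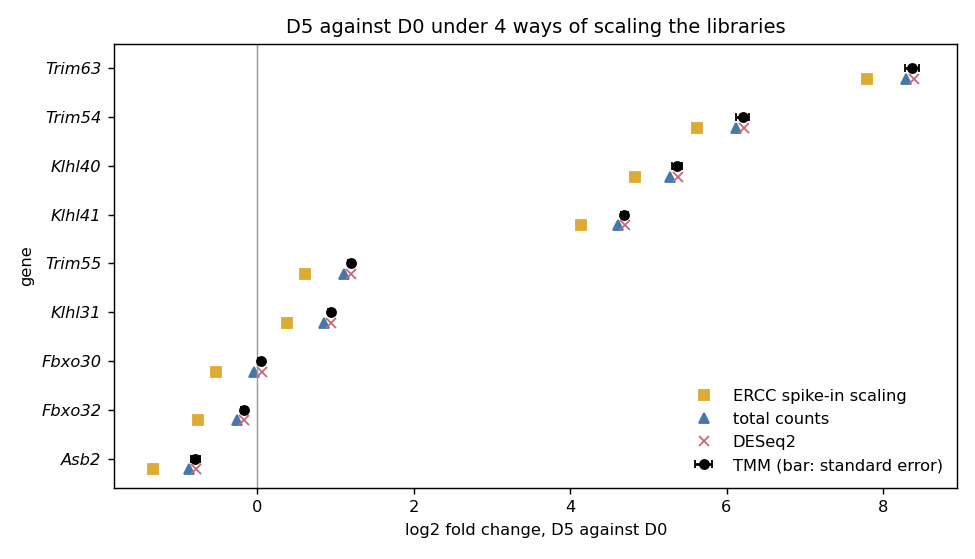
Log2 fold change of the 9 genes, D5 against D0, from edgeR with TMM (black), DESeq2, total counts and ERCC spike-in scaling. Black bars show the standard error derived from the test statistic, which is too small for large changes from few counts. The 4 genes with the largest rise are far to the right under every scaling, while *Fbxo30* lies on both sides of 0.

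Promoter sequences are shown for genes with a large change and for *Asb2*, which fell. RefSeq (GRCm38.p6) gave entries for 7 of the 9 genes. The 250 bases before the start site are printed 5′ to 3′ on the gene's strand, with matches in capitals, searched on both strands. The letters searched were the E-box CANNTG and its form CAGCTG (any match of which is also an E-box), the M-CAT element CATTCC, the FoxO element GTAAACA, the MEF3 element TCAGGTT, the TATA box as TATAAA, and, by name only, the MEF2 and CArG elements. The windows are chr4:134314870-134315119 for *Trim63*, chr5:31116362-31116611 for *Trim54*, chr9:121777357-121777606 for *Klhl40*, chr2:69669870-69670119 for *Klhl41*, and chr12:103356002-103356251 on the minus strand for the upstream start of *Asb2*. The RefSeq start of *Trim54* lies 100 bases before the start of the GENCODE gene.
Trim63: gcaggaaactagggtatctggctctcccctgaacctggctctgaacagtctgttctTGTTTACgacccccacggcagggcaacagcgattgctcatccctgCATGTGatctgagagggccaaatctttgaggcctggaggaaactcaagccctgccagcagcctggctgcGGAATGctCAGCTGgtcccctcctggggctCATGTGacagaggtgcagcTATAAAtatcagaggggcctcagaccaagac
Trim54: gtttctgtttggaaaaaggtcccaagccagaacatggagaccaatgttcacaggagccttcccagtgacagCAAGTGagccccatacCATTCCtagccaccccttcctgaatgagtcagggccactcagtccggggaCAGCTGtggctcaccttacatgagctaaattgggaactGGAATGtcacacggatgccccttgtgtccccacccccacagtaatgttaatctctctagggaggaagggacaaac
Klhl40: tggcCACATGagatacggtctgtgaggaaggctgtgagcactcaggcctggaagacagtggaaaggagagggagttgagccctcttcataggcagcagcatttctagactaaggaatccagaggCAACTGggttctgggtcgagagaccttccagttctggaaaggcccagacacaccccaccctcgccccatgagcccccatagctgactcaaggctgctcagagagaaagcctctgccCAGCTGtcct
Klhl41: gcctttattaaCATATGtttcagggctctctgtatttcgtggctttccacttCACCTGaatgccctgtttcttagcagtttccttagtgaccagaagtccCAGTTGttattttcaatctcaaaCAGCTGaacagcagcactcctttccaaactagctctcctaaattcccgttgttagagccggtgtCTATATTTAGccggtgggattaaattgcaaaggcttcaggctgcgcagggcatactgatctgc
Asb2: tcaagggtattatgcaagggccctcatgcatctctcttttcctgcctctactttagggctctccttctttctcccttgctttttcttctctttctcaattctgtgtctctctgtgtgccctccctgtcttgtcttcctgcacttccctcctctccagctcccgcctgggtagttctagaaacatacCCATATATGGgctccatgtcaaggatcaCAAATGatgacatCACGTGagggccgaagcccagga
CAGCTG was present in the windows of *Trim63*, *Trim54*, *Klhl40* and *Klhl41*, the 4 genes that rose most, and in 13.0% of the windows of all 32851 promoters. It lay 72 to 67 bases before the start in *Trim63*, 113 to 108 in *Trim54*, 10 to 5 in *Klhl40* and 127 to 122 in *Klhl41*. An E-box of any form was present in 66.2% of all promoters, so it says little of a single gene. *Trim63* also held a TATAAA 31 to 26 bases before its start (12.4% of all promoters), a FoxO element on the minus strand at 194 to 188 (3.17%) and 1 M-CAT element, of which *Trim54* held 2 (12.6%). The MEF2 element was found only in *Klhl41*, at 63 to 54 (2.92%), and the CArG element only in *Asb2*, at 64 to 55 (1.47%). None of the windows held the MEF3 letters (3.49%), and the windows of *Klhl31* and *Fbxo30* and a second one of *Asb2* held no match to any of these. The RefSeq starts of these 3 windows lie 232, 257 and 17611 bases after the start of the GENCODE gene. The windows thus lie mostly or wholly inside the genes, and the 250 bases before the GENCODE starts of *Klhl31* and *Fbxo30* were not searched as such. These matches describe letters in a window and are not measured binding sites.

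Transcription factors linked to these genes in earlier work were mostly higher in myotubes: of 23 tested, 17 rose (73.9%), 4 fell (17.4%) and 2 did not pass, with a median log2 fold change of 0.99. Of all genes tested, 42.2% were higher and 40.8% lower, and the lists below are to be read beside these shares. The largest rises were those of *Mef2c* (7.96 ± 0.074) and *Myog* (7.54 ± 0.055), both factors of terminal muscle differentiation, and the largest falls those of *Smad2* (-0.94 ± 0.039), a TGF-beta signal transducer, and *Myod1* (-0.71 ± 0.035). The FoxO genes, chosen for naming after their values were seen because FoxO factors are known to induce *Trim63* and *Fbxo32*, were all higher: *Foxo1* by 0.49, *Foxo3* by 1.03, *Foxo4* by 1.18 and *Foxo6* by 1.96 on the log2 scale. Of these 2 targets, *Trim63* rose and *Fbxo32* was lower (-0.17). Transcript levels do not measure FoxO activity, and an action of FoxO factors on these genes was not tested. With ERCC spike-in scaling 5 of the factors were called higher and 2 lower.

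Known partners and substrates of the 9 proteins changed in both directions. Of 16, 12 were higher and 4 lower, with a median log2 fold change of 3.90, and with ERCC spike-in scaling 9 were called higher and 3 lower. For the Kelch proteins, nebulin (*Neb*) went from 9.70 to 4699 CPM, a log2 fold change of 8.92 ± 0.055, and leiomodin 3 (*Lmod3*) rose by 5.81 ± 0.051. *Nrap* rose by 0.61 ± 0.034 and filamin C (*Flnc*) by 0.30 ± 0.033. Filamin A (*Flna*), linked to *Asb2*, fell by 2.67 on the log2 scale, from 4768 to 748 CPM.

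The MuRF substrates and anchors were all higher at D5. Titin (*Ttn*) rose by 1.99 ± 0.038, and the fast myosin heavy chain *Myh1* by 9.72 ± 0.056. *Myh4* held 4, 1 and 1 counts at D0 and had a log2 fold change of 14.02, which rests on these few counts. No error is given for it, since the one derived from the test statistic is too small. *Mybpc1* rose by 6.36 ± 0.086, troponin I *Tnni2* by 8.73 ± 0.071 and muscle creatine kinase *Ckm* by 8.30 ± 0.065. *Mybpc2* was at or under 3 counts in each D0 library and was at least 480-fold higher at D5, set against 3 counts per library. Of the *Fbxo32* substrates, *Myod1* fell by 0.71 and *Eif3f* fell by 0.17 on the log2 scale, and the intermediate filament gene desmin (*Des*) rose by 0.72 ± 0.033.

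The cullin-RING machinery moved by far less. Of 35 genes, 25 were higher, 7 lower and 3 without a call, and the median log2 fold change was 0.29. The largest rises were those of *Rnf7* (1.42 ± 0.044), the RING partner of Cul5, and of *Dcun1d3* (0.91 ± 0.054), a regulator of cullin neddylation. The largest falls were those of *Cand1* (-0.77 ± 0.034), which exchanges substrate receptors on cullins, and *Cul9* (-0.65 ± 0.26, adjusted p = 2.6e-02 in edgeR's test), whose libraries overlapped between the days, at 44, 41 and 61 counts at D0 and 11, 20 and 27 at D5. With any 1 library left out 6 genes of the list were called lower, and with DESeq2 5 were. The direct scaffolds of the receptors, named after their values were seen, were *Cul1* (0.67), *Skp1a* (0.86), *Cul3* (0.18), *Cul5* (0.51), *Elob* (0.32) and *Eloc* (-0.48), all called. With ERCC spike-in scaling none of the 35 was called higher and 2 were called lower.

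Ubiquitin, E1 and E2 genes leaned the other way: of 34, 10 were higher (29.4%) and 19 lower (55.9%), with a median log2 fold change of -0.11. *Cdc34* (1.19 ± 0.038), an E2 of cullin ligases, and *Ube2g2* (0.99 ± 0.034), an E2 of the endoplasmic reticulum, rose most. *Ube2c* (-4.19 ± 0.057), the E2 of the anaphase-promoting complex, and *Ube2t* (-2.80 ± 0.18), an E2 of DNA repair, fell most. Of 37 proteasome genes tested, 24 were higher (64.9%), 9 lower (24.3%) and 4 without a call. Their median was 0.19 and their range ran from -0.48 (*Psma1*) to 1.04 (*Psmc3*, an ATPase of the regulatory particle). With ERCC spike-in scaling no proteasome gene was called in either direction, and 7 ubiquitin, E1 and E2 genes were called lower and none higher.

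Among 28 other ubiquitin ligases of muscle, 14 were higher, 10 lower and 4 without a call, and the median log2 fold change was 0.080. *Trim72* (MG53, 10.09), which takes part in membrane repair, and the muscle F-box gene *Fbxo40* (8.24) rose most. Both rises start from few counts, at 0.352 and 0.108 CPM at D0. *Skp2*, a cell cycle F-box gene that went from 45.5 to 11.4 CPM, and *Smurf1* (-0.98 ± 0.036) fell most. With ERCC spike-in scaling 6 of the 28 were called higher and 3 lower.

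The numbered relatives of the 9 genes show how the families as a whole moved. Of 26 other *Klhl* genes tested, 15 were higher (57.7%) and 7 lower (26.9%), with a median of 0.60, against 42.2% higher and 40.8% lower over all genes tested. *Klhl34*, undetected at D0, was at least 32.4-fold higher, *Klhl33* rose by 4.77 ± 0.14, *Klhl6* fell by 2.71, and *Klhl1* was at least 4.90-fold lower. Of 11 other *Asb* genes, 10 were higher (90.9%), among them *Asb16* (7.66, from 0.0677 CPM at D0) and *Asb14* (at least 142-fold). *Asb5* (-0.59 ± 0.036) was the exception, and *Asb2* therefore moved in the direction of *Asb5* and not of the others.

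The *Trim* and *Fbxo* relatives were split. Of 38 *Trim* genes tested, 15 were higher and 19 lower, with a median of -0.14. *Trim67*, undetected at D0, was at least 10.1-fold higher, *Trim66* was at least 8.63-fold lower and *Trim59* fell by 2.81. Of 30 *Fbxo* genes, 17 were higher and 9 lower, with a median of 0.36. *Fbxo16* rose by 3.42 ± 0.26, and *Fbxo5* (Emi1, an inhibitor of the anaphase-promoting complex, -4.88 ± 0.082) and *Fbxo48* (-4.07 ± 0.19) fell most. The largest rises of these families were those of *Trim72* and *Fbxo40*, given above. Some genes, among them *Trim72*, *Fbxo40* and *Asb5*, are counted both here and among the other ligases of muscle. With ERCC spike-in scaling the calls were 3 higher and 4 lower for *Klhl*, 4 and 0 for *Asb*, 6 and 7 for *Trim*, and 5 and 2 for *Fbxo*.

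**Figure D4:**
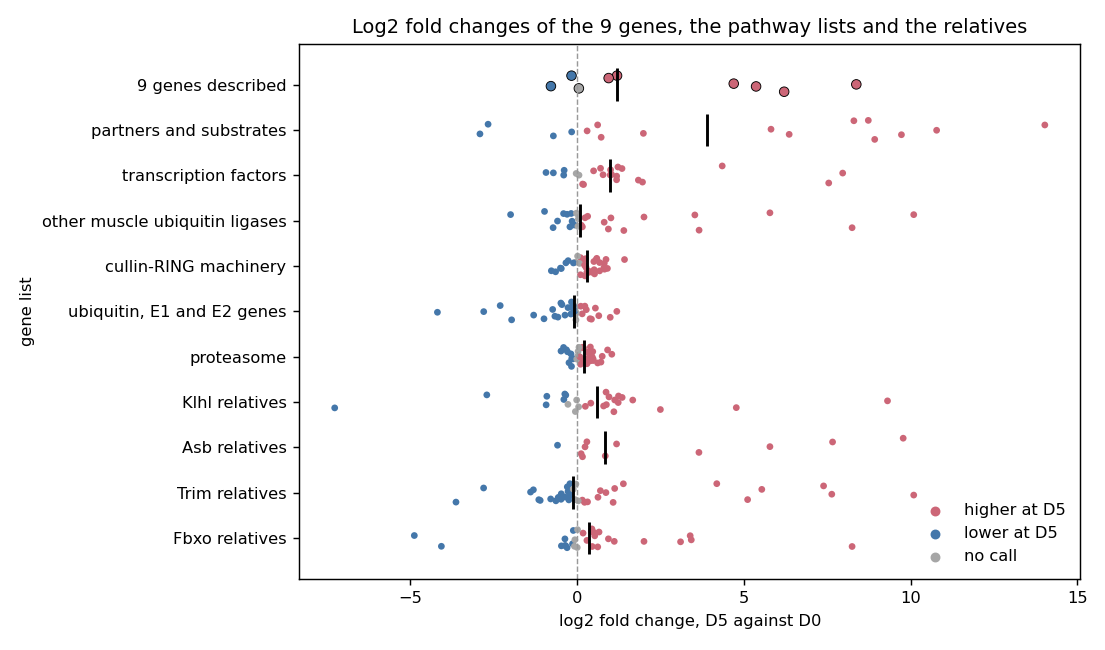
Log2 fold change, D5 against D0 with TMM, of the 9 genes and of each tested gene in the lists, coloured by call, with black bars at the list medians. Genes undetected on 1 day are drawn at their fitted value, which is no bound. Marker genes are not drawn. Of the lists drawn, the partners and substrates have the highest median, 3.90, and the proteasome genes span the narrowest range, from -0.48 to 1.04.

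The genes nearest in pattern to each of the 9 were found by the distance between log2 CPM values, centred per gene, over the 6 libraries (a distance of 0 means the same pattern). *Trim63* was nearest to *Myh7b* (0.311) and *Myl2* (0.488), 2 myosin genes, and *Trim54* to *Lrrc32* (0.217) and *Ankrd2* (0.248), the latter a stretch-responsive muscle ankyrin repeat gene. *Klhl40* was nearest to the ryanodine receptor gene *Ryr3* (0.0824) and to *Msln* (0.101), and *Klhl41* to *Vamp5* (0.185) and *Cxcl16* (0.220), of which *Cxcl16* was listed at 0 in each D0 library and reached 1.66 CPM at D5. *Trim55* was nearest to *Por* (0.0420) and *Qsox1* (0.0435), and *Klhl31* to the lysosomal genes *Gaa* (0.0253) and *Npc2* (0.0287). *Fbxo32* was nearest to *Trim44* (0.0306), *Fbxo30* to *Gatad1* (0.0475) and *Bdp1* (0.0569), and *Asb2* to *Agfg1* (0.0441) and *Psd3* (0.0459). With only 2 groups, this distance mostly reflects the change between the days in log2 CPM, computed with a prior count of 2. The prior count shrinks changes of genes with few counts, so near genes can differ in fitted log2 fold change. That of *Cxcl16* was 8.75 against 4.69 for *Klhl41*, and that of *Myl2* 10.88 against 8.37 for *Trim63*.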

How the data were processed

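The read counts per gene that the authors deposited, without normalization, were analysed for 3 RNA-seq libraries per day, D0 (myoblasts) and D5 (myotubes). Per the labels, reads were aligned to GRCm38 and counted with featureCounts, and DESeq2 (version 1.6.3) is also named. The labels name Tophat2 and the paper's methods HISAT2. Strand setting, annotation release and how reads with several matches were counted are not given in the sources used here. The 92 ERCC rows and a nameless row that equalled its column total were left out. Of the 54525 gene rows, 99.9% matched GENCODE identifiers of GRCm38.

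TMM factors, CPM, log2 fold changes and quasi-likelihood tests came from edgeR 4.0.16 (R 4.3.3), run after filterByExpr, with Benjamini-Hochberg adjustment and a threshold of 0.05. The size of a log2 fold change over the square root of its F statistic was taken as its standard error. For large changes from few counts this is too small: DESeq2's standard errors were 0.25 for *Trim63* and 0.13 for *Trim54*. TPM used merged exons. A library at or under 3 counts was taken as undetected, which covers counting error only, and folds against such a group were set against 3 counts per library. The model was tested on simulated data. Between replicates the chi-square of counts was 2.28 to 3.71 per degree of freedom, so none was taken for a copy.

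Named were the 9 genes, all tested partners and substrates, the markers, up to 2 genes with the largest rise and 2 with the largest fall in each other list, and the 2 genes nearest in pattern to each of the 9, apart from genes that are not reported here. The members and lists were chosen with earlier results of these data known. Alternatives were DESeq2 1.42.0, upper-quartile, total-count and ERCC scaling, no filter, a minimum of 10 counts in every library, a block for the replicate number, leaving out 1 library at a time, and the longest transcript as the length.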

Additional observations from a re-analysis of the deposited data

Results flagged for a closer look

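The ERCC spike-ins, which enter no comparison of the 9 genes other than the scaling alternative, took a larger share of the counts in D5 replicate 1 (1.20%) and D5 replicate 3 (2.09%) than in any D0 library (0.726% to 0.859%), while D5 replicate 2 was at 0.720%. Relative to the spike-ins, *Trim55* was at 1.46, 2.33 and 0.826 times its D0 mean in D5 replicates 1, 2 and 3, and *Fbxo32* at 0.569, 0.894 and 0.323 times. *Trim63* was at 204, 341 and 119 times its D0 mean in the same libraries. Single outlying values were not searched for, since groups held 3 libraries.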

How the results depend on the processing

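The calls of the 9 genes, 6 higher and 2 lower, stood with DESeq2, upper-quartile and total-count scaling, no filter and each library left out (6 higher and 2 lower in every case). With at least 10 counts in every library *Trim63* was not tested, since D0 replicate 2 held 9 counts, which left 5 higher and 2 lower. *Fbxo30*, without a call throughout, reversed to -0.034 with total counts, -0.53 with ERCC scaling and -0.0029 with no filter.

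ERCC spike-in scaling changed most counts. It gave 1813 genes higher and 3747 lower, so that 32.6% of the calls were higher against 50.8% with TMM, and of the 9 genes it called 4 higher and 1 lower. It called 0 higher and 2 lower in the cullin-RING machinery, 6 and 3 of the other muscle ligases, 0 and 7 of the ubiquitin, E1 and E2 genes, 0 and 0 of the proteasome, 5 and 2 of the transcription factors, 3 and 4 of *Klhl*, 4 and 0 of *Asb*, 6 and 7 of *Trim*, and 5 and 2 of *Fbxo*. The cause was not tested. At least 10 counts in every library left 6 *Asb* and 9 *Trim* genes higher, with fewer genes tested (13713).

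Without each library in turn, 6723 to 6936 genes were higher and 6513 to 6663 lower, and *Trim63* ranged from 8.17 to 8.64 on the log2 scale. With the replicate number as a block, 6894 genes were higher and 6664 lower, and of the 9 genes 6 and 2. Same-numbered libraries correlated at 0.033, 0.064 and 0.028 in their deviations from the group means, under the level taken as pairing, though each correlated best with its own number. The longest transcript as the length moved 15 TPM levels by more than 1 SD. At the depth of D0, *Trim63* rests on 9 to 16 counts per library.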
